A study of Mus musculus with 11 samples.

Results

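CpG-poor peaks that carried both H3K4me1 and H3K27me3 in mouse embryonic stem cells are described here by their DNA methylation. They are the unified H3K4me1 peaks on chromosomes 1 to 19 that shared at least 1 bp with a unified H3K27me3 peak under 20 kb wide, touched no H3K27me3 peak of 20 kb or wider and no H3K9me3 peak, and held under 30 CpGs per kb. Of 36588 unified H3K4me1 peaks on these chromosomes (37256 on all), 6232 overlapped an H3K27me3 peak, 1685 of these touched a wide one, 28 of the remainder touched an H3K9me3 peak, and 4519 were left. Below the CpG limit were 2376 of them, 6.49% of all H3K4me1 peaks and 52.6% of the double-marked ones. They were chosen by peak calls and CpG content, so their marks and their low CpG content are not findings. Methylation was not used in the choice.

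The measurements came from CUT&Tag-BS in E14 cells, a mouse embryonic stem cell line of 129/Ola background, grown in serum with leukemia inhibitory factor and neither edited nor treated. In this assay an antibody tethers a transposase to the mark, and the released DNA is bisulfite converted, so each sequenced CpG reports whether it was methylated. Bisulfite libraries were made for H3K4me1 and H3K9me3 from 250000 cells, each sequenced in a run of 35-bp reads (run 1) and a run of 75-bp reads (run 2), and for H3K27me3 from 4000, 20000, 100000 and 250000 cells. A control from 250000 cells without bisulfite was made for each mark and contributed peaks but no methylation. All 11 samples were 1 cell line, no label says that libraries came from separate cultures, and p-values therefore measure only the spread between these libraries, which also differed in cell number. Each library read fragments of 1 mark, so the levels below do not say whether both marks lay on the same molecule.

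H3K4me1 lies at enhancers and around promoters, and H3K27me3 is laid down by Polycomb complexes at repressed developmental genes. In embryonic stem cells, enhancers carrying both marks have been called poised, because the gene they serve is silent until differentiation. Methylated cytosine is common over most of the mammalian genome and scarce in CpG islands, the dense CpG stretches at many promoters that Polycomb complexes bind, and active or primed enhancers are often methylated in part.

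Promoter sequences show how unevenly CpGs were spread within these CpG-poor peaks. The 250 bases before a RefSeq gene start lay wholly inside a double-marked CpG-poor peak in 393 cases, for 342 genes in 305 peaks. Printed below are the promoter with the most calls among those at a level of 0, both promoters with the highest levels, and those inside 2 of the peaks with the most calls. They were chosen after their values were seen. Each runs 5′ to 3′ towards the gene start on the strand given, from RefSeq on build GRCm38.p6, and capitals mark every CG dinucleotide, the site where methylation was read.
Mef2d, chr3:88142122-88142371, plus strand: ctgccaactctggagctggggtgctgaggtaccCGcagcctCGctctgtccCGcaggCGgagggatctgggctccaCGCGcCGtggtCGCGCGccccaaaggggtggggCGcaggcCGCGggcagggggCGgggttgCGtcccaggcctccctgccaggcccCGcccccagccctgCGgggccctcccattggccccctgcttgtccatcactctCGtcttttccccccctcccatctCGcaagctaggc
Myl7, chr11:5898783-5899032, minus strand: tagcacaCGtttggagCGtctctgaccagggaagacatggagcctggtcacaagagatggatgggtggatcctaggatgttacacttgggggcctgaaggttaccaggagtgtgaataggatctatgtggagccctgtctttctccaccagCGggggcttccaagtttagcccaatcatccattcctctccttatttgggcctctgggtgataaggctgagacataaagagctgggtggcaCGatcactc
Inhbe, chr10:127351849-127352098, minus strand: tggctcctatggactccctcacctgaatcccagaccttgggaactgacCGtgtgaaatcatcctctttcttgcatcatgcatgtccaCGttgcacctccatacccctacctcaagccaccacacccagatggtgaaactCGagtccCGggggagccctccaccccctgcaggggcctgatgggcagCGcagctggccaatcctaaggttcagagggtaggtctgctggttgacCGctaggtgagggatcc
Neurog3, chr10:62132840-62133089, plus strand: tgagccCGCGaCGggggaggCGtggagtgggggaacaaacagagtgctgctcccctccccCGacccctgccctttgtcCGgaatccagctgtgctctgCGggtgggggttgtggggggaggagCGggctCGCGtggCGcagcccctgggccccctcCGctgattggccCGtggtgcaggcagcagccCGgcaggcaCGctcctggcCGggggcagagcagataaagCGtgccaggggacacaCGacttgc
Ankrd33b, chr15:31367760-31368009, minus strand: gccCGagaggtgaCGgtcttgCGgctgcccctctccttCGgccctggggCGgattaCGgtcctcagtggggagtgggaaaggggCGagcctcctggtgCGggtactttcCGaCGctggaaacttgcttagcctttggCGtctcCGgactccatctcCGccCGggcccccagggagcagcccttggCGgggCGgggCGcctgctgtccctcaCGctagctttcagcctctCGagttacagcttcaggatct

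The Mef2d window, upstream of a muscle and neuronal transcription factor gene, held 19 CGs, and none of 117 calls in H3K4me1 run 2 or of 244 calls in the 250000-cell H3K27me3 library was methylated, which allows levels of up to 2.56% and 1.23% (3 counts of the total). Its peak as a whole, at 21.3 CpGs per kb, stood at 25% in H3K4me1 run 2 and 3.55% in the 250000-cell H3K27me3 library. The Neurog3 window, upstream of the regulator of endocrine cell fate, had 18 CGs and levels of 2.56% (4 of 156 calls) and 0.267% (2 of 748). The Ankrd33b window had 19 CGs, with no methylated call among 85 in H3K4me1 run 2 (up to 3.53%) and 15 of 1003 calls methylated in the 250000-cell H3K27me3 library. These 3 windows were nearly free of methylation in both libraries, although their peaks were classed as CpG-poor over their whole width.

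The Myl7 window, upstream of an atrial myosin light chain gene, held only 4 CGs and was methylated at 53.8% of 26 calls in H3K4me1 run 2 (95% Wilson interval 35.5 to 71.2%) and at 55.0% of 20 calls in the 250000-cell H3K27me3 library (34.2 to 74.2%). Its methylated calls came from the 3 CGs farther from the start, while the CG at position 242 of the window had 0 of 5 and 0 of 1 calls methylated. The Inhbe window, upstream of a gene for an inhibin beta subunit, held 6 CGs and stood at 52.2% of 46 calls (38.1 to 65.9%) and 45% of 20 calls (25.8 to 65.8%). Such levels were rare among windows with enough calls. Calls are summed over the CGs of a window, so the limit used here can leave out windows with few CGs. Of 140 protein-coding promoter windows with at least 20 calls in both libraries, 117 were under 20% in both and 1 was over 50% in both, with medians of 2.90% and 1.91%.

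The 2376 peaks covered 5.38 Mb and 102054 CpGs. Their median width was 1332 bp, against 1095 bp over all H3K4me1 peaks, and ranged from 501 bp (316 peaks) to 45093 bp. A median peak held 23 CpGs at 18.6 CpGs per kb (quartiles 13.8 and 23.8). A 200-bp stretch with at least 10 CpGs was present in 945 of them (39.8%), against 28.2% of all H3K4me1 peaks and 98.7% of the CpG-dense double-marked peaks, which follow the same rule with 30 CpGs per kb or more. Many CpG-poor double-marked peaks thus held a CpG cluster within a sparser surround.

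A gene start in the RefSeq promoter table lay inside 343 of 2298 peaks (14.9%, chromosome 18 not analysed for starts), compared with 10% of all H3K4me1 peaks and 35.2% of CpG-dense double-marked peaks. A listed start lay within 5 kb of 45.8%, and none within 50 kb of 11.8%. Starts were listed for 16457 of 20154 protein-coding genes on these chromosomes, so some starts were missed and some distances are too long. The peak overlapping Prdm14 counted as beyond 50 kb, with its nearest listed start 691338 bp away. The body of a protein-coding gene overlapped 62.4% of the peaks, against 64.5% of all H3K4me1 peaks. The class therefore sat closer to listed gene starts than H3K4me1 peaks in general, and most of its peaks held no listed start. Exons and introns were not analysed here.

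H3K27me3 peaks that contained or touched them numbered 2007, with a median width of 4722 bp, and 1699 of these held 1 such H3K4me1 peak. H3K27me3 covered the whole width of 1282 H3K4me1 peaks (54.0%) and less than 50% of the width of 530 (22.3%). A CpG-dense double-marked peak lay in the same H3K27me3 domain as 558 of them. Calls differed between libraries: the single-library H3K27me3 lists overlapped 3, 610, 1555 and 1897 of the 2376 peaks from the smallest to the largest cell number, and the control list overlapped 2218. For 397 peaks (16.7%) the H3K27me3 peak was called in the control only. In all 3 H3K4me1 lists and in the control and 250000-cell H3K27me3 lists were 1211 peaks (51.0%).

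At the CpG limit, the peaks just inside were one at Dpys, with 29.98 CpGs per kb and levels of 11.8% in H3K4me1 run 2 and 7.39% in the 250000-cell H3K27me3 library, and one at Robo1, with 29.94 CpGs per kb, 5% and 11.4%. Just outside were a peak at Foxn4, with 30.003 CpGs per kb, 17.5% and 11.4%, and one at Myo3b, with 30.03 CpGs per kb, 21.8% and 7.58%. At the width limit, a peak at Tmem151b lay in an H3K27me3 domain of 19962 bp and one at Cxcl12 in a domain of 20003 bp.

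Methylation was intermediate in these peaks and similar through both marks. A methylation level is the share of methylated calls among all calls at the CpGs of the peaks. It was 25.1% in H3K4me1 run 1 (305321 calls) and 25.3% in run 2 (601472 calls). In the H3K27me3 libraries it was 20.1% (6448 calls), 20.4% (88280 calls), 21.9% (398079 calls) and 22.0% (578022 calls) from the smallest to the largest cell number, a mean of 21.1% ± 0.989 (SD, n = 4). All 4 H3K27me3 values lay below both H3K4me1 values. In the H3K9me3 runs, which reached few of these CpGs (3807 and 10085 calls), the levels were 28.6% and 30.7%. Run 1 and run 2 of H3K4me1 agreed at 93.1% of the 4026 CpGs in these peaks called once in each, and differed by less than sampling noise (mean chi-square 0.409 over 7525 CpGs, where separate molecules give 1), so they were counted as 1 library and their levels carry no replicate error. Between the 100000-cell and 250000-cell H3K27me3 libraries the same measure was 1.06.

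**Figure D1:**
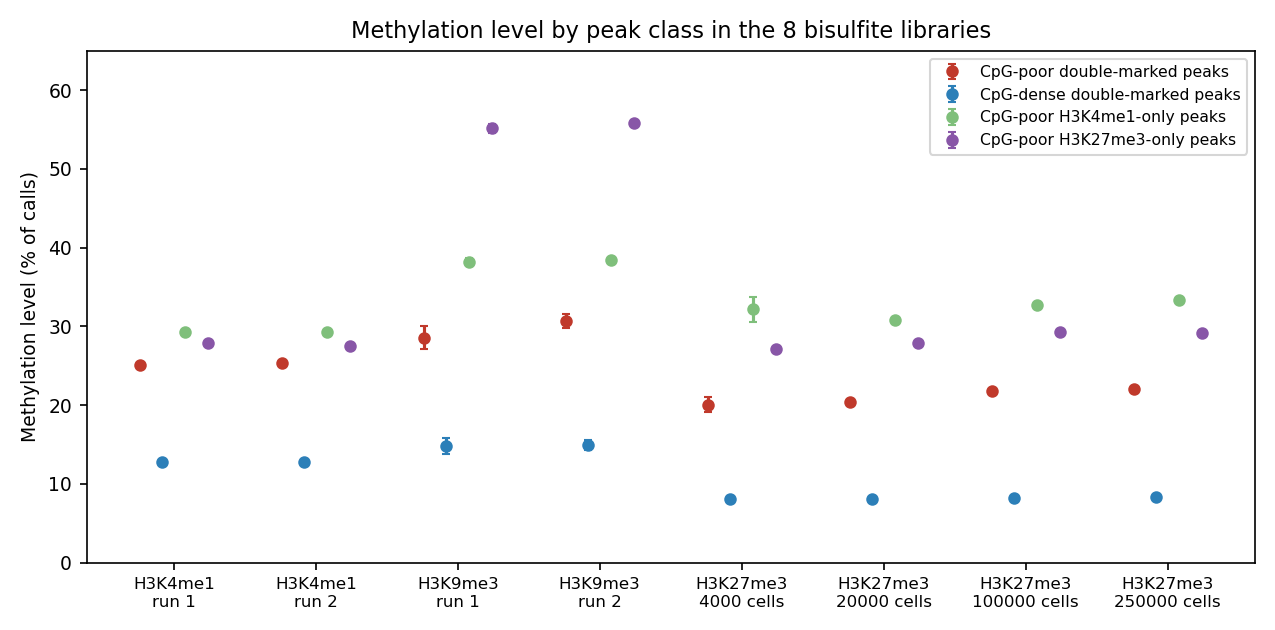
Methylation level (percent of calls, vertical axis) of 4 peak classes in each of the 8 bisulfite libraries, with 95% Wilson intervals as bars. The CpG-poor double-marked peaks sit between 20.1 and 30.7%, above the CpG-dense double-marked peaks in every library.

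Single peaks spread widely around this level. Over peaks with at least 20 calls, the median was 26.3% in H3K4me1 run 2 (2118 peaks, quartiles 16.1 and 39.7%) and 26.3% in the 250000-cell H3K27me3 library (2214 peaks, quartiles 13.1 and 44.3%). Levels under 20% were found in 34.6% of peaks in H3K4me1 run 2 and in 38.4% in the 250000-cell H3K27me3 library, and levels over 80% in 0.472% and 1.90%. At single CpGs with at least 10 calls, most values were low: in the 250000-cell H3K27me3 library, 58.1% of 16967 CpGs were at or below 10%, 39.2% lay between 10 and 90%, and 2.68% were at or above 90%. In H3K4me1 run 2 these shares were 50.7%, 47.6% and 1.68% of 18053 CpGs. These CpGs were only 16.6% and 17.7% of the CpGs in the peaks. CpGs read more often stood lower: in the 250000-cell library the pooled level was 22.0% over all CpGs and 19.9% at those with 5 calls or more. Among the CpGs with at least 10 calls, those at or above 90% were thus few in either library.

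CpG-dense double-marked peaks stood lower, at 12.8% in both H3K4me1 runs and 8.22% ± 0.0983 in the H3K27me3 libraries (SD, n = 4). The CpG-poor peaks exceeded them by 11.9, 12.2, 13.6 and 13.6 points in the H3K27me3 libraries, a mean of 12.9 ± 0.901 points, with the same direction in 4 of 4 libraries. An exact two-sided sign-flip permutation test over these libraries gave p = 0.13, the smallest it allows for n = 4. CpG content was the only part of the rule in which these classes differ.

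CpG-poor H3K4me1 peaks with neither H3K27me3 nor H3K9me3 (27037 peaks) stood at 29.3% in both H3K4me1 runs, above the double-marked peaks. In the H3K27me3 libraries the double-marked peaks differed from them by a mean of -11.2 ± 0.720 points (n = 4), again with p = 0.13 in the exact sign-flip permutation test. That difference depended on how peaks were weighted: with the median over peaks of at least 20 calls in place of the pooled level, it turned to 1.72 points on average over the libraries. The medians were 10 against 3.70% and 19.4 against 14.3% in the 4000-cell and 20000-cell libraries, the former over only 3 H3K4me1-only peaks. They were 25.3 against 26.9% and 26.3 against 29.3% in the 100000-cell and 250000-cell libraries, where the double-marked peaks were lower by both measures. These classes also differed in CpG content, with medians of 18.6 and 12.2 CpGs per kb. At matched content in the 250000-cell library, double-marked medians were higher under 10 CpGs per kb (35.5 against 32.9%) and from 10 to 15 (36.4 against 34.7%). They were lower from 15 to 20 (30.3 against 30.5%), 20 to 25 (21.8 against 24.6%) and 25 to 30 (18.1 against 19.2%). Pooled levels were lower in every such bin.

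CpG-poor H3K27me3 peaks with neither H3K4me1 nor H3K9me3 (12159 peaks) stood at a mean of 28.4% ± 1.01 in the H3K27me3 libraries (n = 4). The double-marked peaks differed from them by -7.07, -7.57, -7.45 and -7.12 points, a mean of -7.30 ± 0.245 points (exact sign-flip permutation test, p = 0.13). Over single peaks the gap was wider. In the 250000-cell library the median was 71.6% over 10786 H3K27me3-only peaks and 26.3% over the double-marked ones, and the mean difference of medians over the 4 libraries was -30.2 points. Levels over 80% were found in 34.8% of H3K27me3-only peaks and 1.90% of double-marked peaks.

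Among the double-marked peaks, methylation was lower where CpGs were denser. In the 250000-cell H3K27me3 library the pooled level was 37.6% in the 264 peaks under 10 CpGs per kb, then 33.3%, 27.3% and 18.9% in the next classes, and 18.4% in the 454 peaks of 25 to 30 CpGs per kb. In H3K4me1 run 2 the range was narrower, from 31.5% to 20.9%. The pooled level of H3K27me3-only peaks was 71.9% under 10 CpGs per kb, 46.1% from 10 to 15, 27% from 15 to 20 and 19% from 25 to 30. The classes thus lay far apart at low CpG content and within 3 points of each other in pooled level from 15 CpGs per kb upward. Medians over single peaks differed in every class: 35.5% against 81.0% under 10 CpGs per kb, 30.3% against 56.0% from 15 to 20, and 18.1% against 26.7% from 25 to 30.

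**Figure D2:**
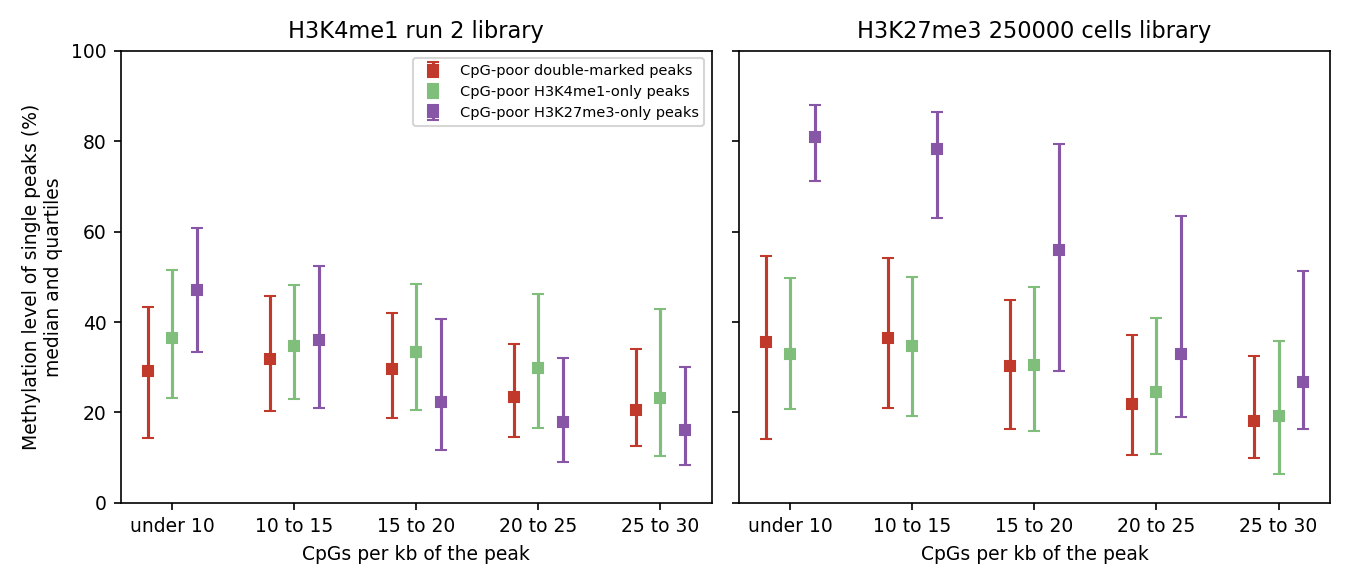
Median methylation level of single peaks with at least 20 calls (squares, with quartiles as bars) against the CpG content of the peak, for 3 CpG-poor classes in H3K4me1 run 2 (left) and the 250000-cell H3K27me3 library (right). In the right panel the H3K27me3-only peaks fall from 81.0 to 26.7% and the double-marked peaks from 35.5 to 18.1%.

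Levels also differed by position and width. Peaks with a gene start inside stood at 16.1% in the 250000-cell H3K27me3 library and 22.5% in H3K4me1 run 2, compared with 26.3% and 27.8% for peaks 5 to 50 kb from a start. The 271 peaks with no listed start within 50 kb stood at 20.2% and 24.1%, between the peaks with a start inside and those 5 to 50 kb away. Some of these 271 may lie near a start that was not listed. The 379 peaks whose densest 200 bp held 15 or more CpGs stood at 15.4% and 21.4%, and the 294 peaks with fewer than 5 at 38.4% and 33.0%. Peaks over 4000 bp stood at 17.7% and those of 501 bp at 31.9% in the 250000-cell H3K27me3 library. Width, CpG clusters and gene starts occur together in these peaks, and their separate parts were not tested.

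Within an H3K27me3 peak, the bases under H3K4me1 were less methylated than the remainder. Over the 2007 H3K27me3 peaks, the 67444 CpGs inside a CpG-poor double-marked peak stood at 19.7, 19.6, 21.1 and 21.2% in the 4 H3K27me3 libraries from the smallest to the largest cell number. The 153995 CpGs of the same H3K27me3 peaks outside any H3K4me1 peak stood at 32.9, 33.8, 35.7 and 36.1%. The groups did not overlap, and the difference was -14.2 ± 0.748 points on average (n = 4, same direction in 4 of 4 libraries, exact sign-flip permutation test p = 0.13). In H3K4me1 run 2 the levels were 23.3% inside and 35.4% outside.

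The difference was also computed at matched local CpG number. Among CpGs with 4 to 6 CpGs within 100 bp, the CpG itself included, the 250000-cell library gave 30.2% inside and 64.2% outside, and the mean difference over the 4 libraries was -33.2 ± 1.13 points. With 2 to 3 CpGs it was -36.5 ± 1.60 points, and with 7 to 10 it was -19.2 ± 0.798 points. With over 10 CpGs, both sides were low, at 6.55% inside and 5.19% outside in the 250000-cell library, and the difference was 1.10 ± 0.454 points with the inside higher in 4 of 4 libraries. Each of these differences had p = 0.13 in the exact sign-flip permutation test. At CpGs with up to 6 CpGs within 100 bp, levels in the 4 H3K27me3 libraries were thus at least 61% outside H3K4me1 peaks and at most 52.8% inside.

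The difference was present in most single H3K27me3 peaks. In the 250000-cell library, 1384 of the 2007 had at least 20 calls on each side, and the H3K4me1-marked side was lower in 1051 (75.9%) and higher in 330. The median was 24.6% inside and 60.6% outside, with a median difference of -28.2 points. The inside was at least 20 points lower in 789 (57%) and at least 20 points higher in 121 (8.74%). The 20000-cell and 100000-cell libraries gave 73.4% of 537 and 75.2% of 1254 with the inside lower.

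**Figure D3:**
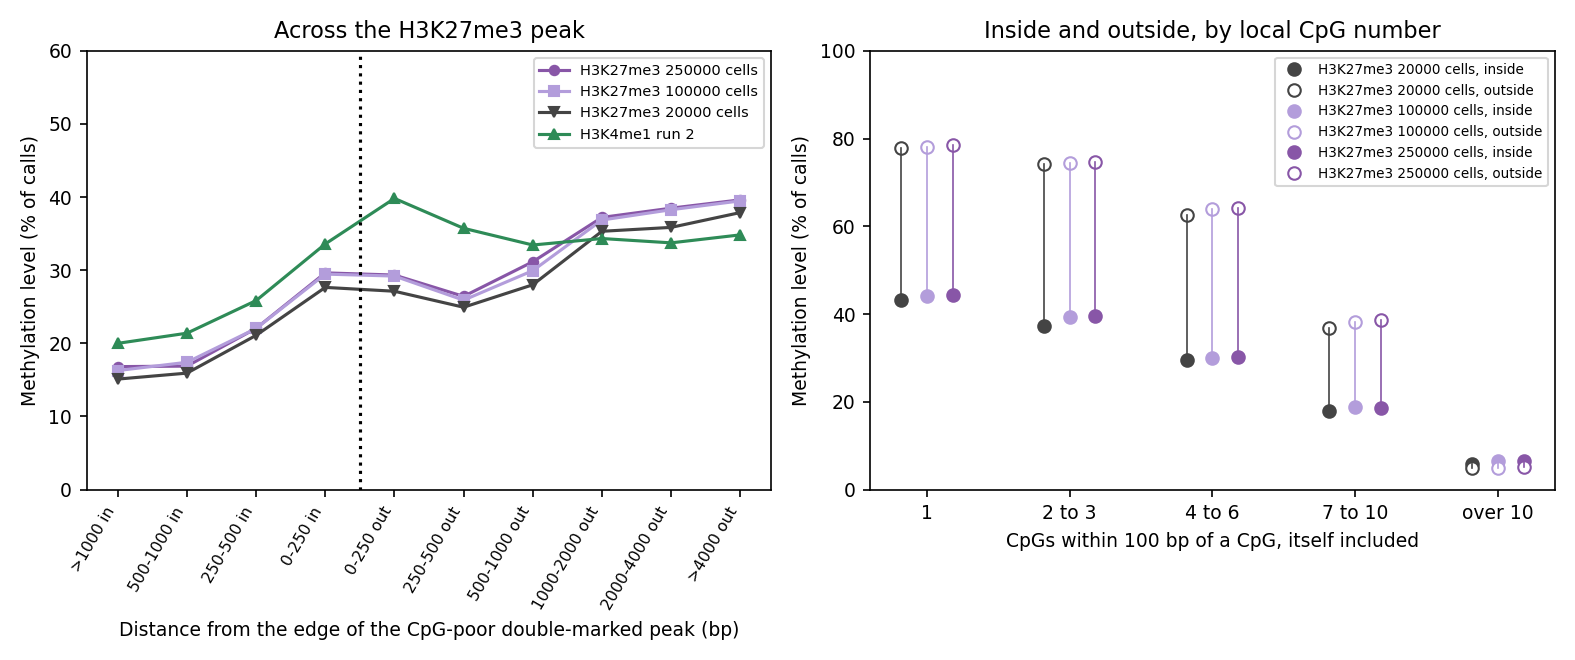
Left: methylation level (percent of calls) by distance in bp from the edge of the CpG-poor double-marked peak, inside (in) and outside (out) it within the H3K27me3 peak, for 4 libraries. Right: level inside (filled) and outside (open) by the number of CpGs within 100 bp in 3 H3K27me3 libraries, where the inside lies lower up to 7 to 10 CpGs and both sides are under 7% above 10 CpGs.

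Pooled over peaks, methylation was higher near the edge of the H3K4me1 peak than in its interior. In the 250000-cell library it was 16.8% more than 1000 bp inside the edge, 22.1% from 250 to 500 bp inside, 29.6% within the last 250 bp and 29.3% in the first 250 bp outside. Farther out it dipped to 26.4% from 250 to 500 bp, where CpGs were denser (a median of 8 within 100 bp, against 6 in the bin before), and reached 39.6% beyond 4000 bp. H3K4me1 run 2 went from 20% to 33.6% inside and 39.8% just outside. The pooled change was therefore gradual inside the edge, with no step at the called edge in the H3K27me3 library. CpGs also grew sparser towards the edge, from a median of 8 within 100 bp in the innermost bin to 5 in the last 250 bp. Bins far inside the edge come only from wide peaks. Neither local CpG number nor width was matched here, and their parts in this rise were not tested.

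The reverse comparison used the 1094 H3K4me1 peaks that H3K27me3 covered only in part. In H3K4me1 run 2, their bases in an H3K27me3 peak stood at 21.5% and their bases outside it at 28.2%. The 250000-cell H3K27me3 library gave 17.8% and 34.9%, the latter from 34451 calls. Pooled over these peaks, bases under both marks were thus lower than bases under H3K4me1 alone, by both antibodies. Peaks were not compared singly here. Local CpG number was not matched either, and its part in the difference was not tested.

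Across the double-marked peaks, levels through the antibodies followed each other. Over 2063 peaks with at least 20 calls in H3K4me1 run 2 and the 250000-cell H3K27me3 library, Pearson's r was 0.816 and Spearman's rho 0.823, given as a description because the points share their CpG content and are not replicates. The median difference, H3K27me3 minus H3K4me1, was -0.413 points, and 65.5% of peaks agreed within 10 points. At least 20 points higher in H3K27me3 were 133 peaks, and at least 20 points lower 58. Between the 100000-cell and 250000-cell H3K27me3 libraries, r was 0.910 and 80.5% of 2046 peaks agreed within 10 points.

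A test per peak asked which of them differed between H3K27me3 and H3K4me1. Of the 2376 peaks, 2201 had the 10 calls in H3K4me1 run 2 and in at least 2 H3K27me3 libraries that were needed. By edgeR's quasi-likelihood test with Benjamini-Hochberg adjustment over all 12212 H3K4me1 peaks tested, 98 differed (4.45%), against 2.87% of all peaks tested. H3K27me3 was higher in 30 (1.36%, background 0.77%) and lower in 68 (3.09%, background 2.1%). H3K4me1 entered as 1 library, assumed to vary like the H3K27me3 libraries. Fisher's exact test on H3K4me1 run 2 and the 250000-cell library, which compares only these libraries, called 15.1% of 2263 peaks (background 9.47%), 150 higher (6.63%, background 4.23%) and 191 lower (8.44%, background 5.24%). At an unadjusted p under 0.05 in the edgeR test were 325 peaks (14.8%, against 13.7% of all). The shares called depended on single libraries: 54 higher and 115 lower without the 20000-cell library, 7 and 26 without the 100000-cell library, and 6 and 32 without the 250000-cell library, the last 2 with fewer peaks tested.

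**Figure D4:**
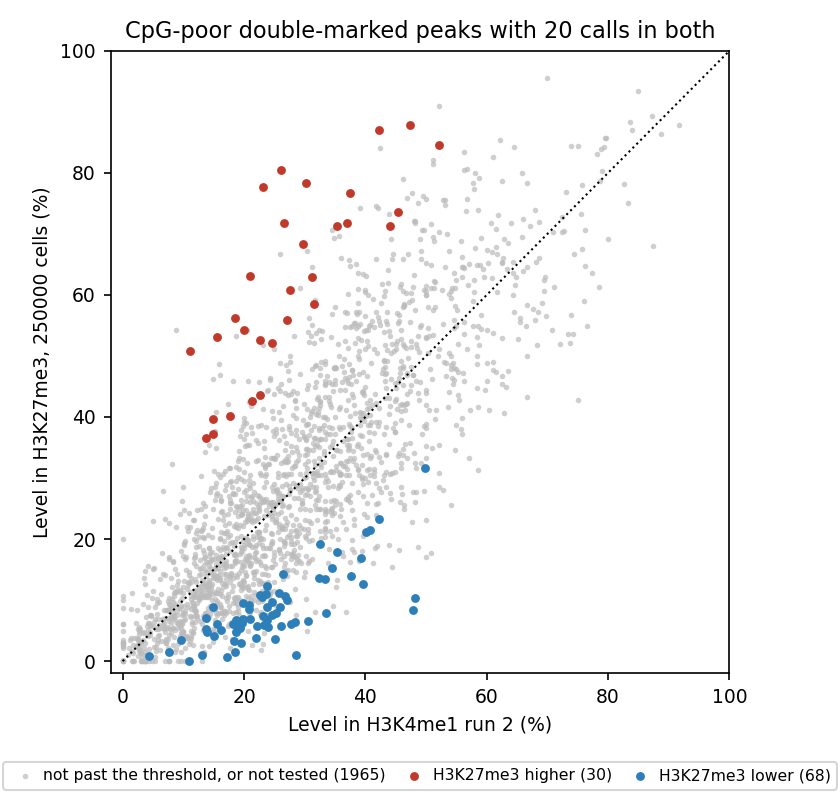
Methylation level of 2063 CpG-poor double-marked peaks in H3K4me1 run 2 (horizontal, percent) and the 250000-cell H3K27me3 library (vertical, percent), with the line of equal levels dotted. The 30 peaks called higher in H3K27me3 (red) lie above the line and the 68 called lower (blue) below it.

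The peaks called in opposite directions differed in width, CpG clusters and gene starts, while their difference in level follows from the calls themselves. For H3K27me3, the level of each peak was taken here as the mean of its 100000-cell and 250000-cell levels. The 68 lower ones had a median of 23.5% in H3K4me1 run 2 and 7.52% by this H3K27me3 mean. Their median width was 6212 bp, with a median of 26 CpGs in their densest 200 bp, and 35 of 65 had a gene start inside (53.8%). The 30 higher ones had medians of 26.3% in H3K4me1 run 2 and 59.3% by the H3K27me3 mean. Their median width was 3489 bp, with 8 CpGs in their densest 200 bp, and 6 of 28 had a start inside (21.4%). Both sets were covered by H3K27me3 over a median of only 37.4% and 44.8% of their width, against 100% for the 2103 not called. Those not called had a median width of 1389 bp and 9 CpGs in their densest 200 bp, and 14.6% had a start inside. Called peaks were also read more often. Median calls in H3K4me1 run 2 were 754.5 in the lower, 416.5 in the higher and 95 in those not called. The part of read number in which peaks were called was not tested. Restricted to the same CpGs, those with a call in both H3K4me1 run 2 and the 250000-cell H3K27me3 library, 36 peaks were higher and 58 lower, and of these 28 and 46 were among the original calls. Restricted to the shared bases, those under both marks, 59 peaks were higher and 67 lower, and of these 22 and 29 were among the original calls.

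Among the 6 largest falls, the Fmnl1 peak (chr11:103170834-103177257, 154 CpGs), over the start of a formin gene that regulates actin, stood at 32.6% and 33.5% in the H3K4me1 runs. It stood at 7.39, 8.64 and 7.86% in the H3K27me3 libraries of 20000, 100000 and 250000 cells, with no call in the 4000-cell library. The groups did not overlap (log2 odds ratio -2.52, edgeR adjusted p = 1.01e-08), and on the shared bases the log2 odds ratio was -3.83. A peak at Syngr3 (chr17:24689020-24689549), a synaptic vesicle gene, fell from 50.0 and 47.8% to 21.7, 10.1 and 8.42% (edgeR adjusted p = 0.0454), a call lost without the 100000-cell or the 250000-cell library (0.140 and 0.172), with H3K4me1 run 1 (0.250), with at least 1 call required (0.121) and at the same CpGs (0.0571). A peak in Sh3pxd2a (chr19:47314223-47316701), which encodes a podosome scaffold, fell from 43.9 and 39.3% to 15.4, 8.96, 14.1 and 16.9% (edgeR adjusted p = 0.00566, 0.112 without the 100000-cell library). An intergenic peak (chr5:111573197-111574625) fell from 37.3 and 37.6% to 11.5, 5.83 and 14.0% (edgeR adjusted p = 0.0136, 0.256 without the 100000-cell library and 0.0861 with H3K4me1 run 1).

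The remaining 2 falls changed with coverage or with single libraries. The peak at Prrx2 (chr2:30845592-30847588), a homeobox gene of mesenchyme, stood at 61.3 and 48.1% in the H3K4me1 runs and at 46.9, 22.3 and 10.4% in the H3K27me3 libraries of 20000, 100000 and 250000 cells. Its 20000-cell value lay close to the H3K4me1 values, and the call (edgeR adjusted p = 0.0296) was lost without the 4000-cell, the 100000-cell or the 250000-cell library (0.249, 0.224 and 0.503), with at least 1 call required (0.0697), on the shared bases (0.118) and at the same CpGs (0.245). The peak in Hepacam (chr9:37384247-37389806), a glial adhesion gene, went from 36.6 and 39.7% to 19.4, 11.3 and 12.7% (edgeR adjusted p = 6.79e-05). H3K27me3 covered 27.6% of its width, and on the shared bases the log2 odds ratio was -0.02 (edgeR adjusted p = 0.988), and at the same CpGs the edgeR adjusted p was 0.216.

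Among the 6 largest rises, a peak 35702 bp from the start of Arl4c, a small GTPase gene, had 15 CpGs (chr1:88664692-88666489). It stood at 38.1 and 26.1% in the H3K4me1 runs and at 69.2, 75.3 and 80.5% in the H3K27me3 libraries of 20000 cells and more (edgeR adjusted p = 0.00263, 0.0720 without the 250000-cell library and 0.224 with H3K4me1 run 1). A peak in Ccdc136 (chr6:29399424-29400988) rose from 19.6 and 23.1% to 54.5, 71.8 and 77.6% (edgeR adjusted p = 6.85e-05), and one at Gm39783 (chr2:30774651-30780736), a predicted gene, from 14.8 and 15.5% to 61.7, 56.9 and 53.1% (6.43e-08). In each of these 3 peaks the libraries of the marks did not overlap, apart from 4000-cell values resting on 3 calls or fewer. In Ankrd44 (chr1:54927544-54932536), which encodes an ankyrin-repeat protein, levels of 29.1 and 30.3% compared with 76.2 and 78.3% in the 100000-cell and 250000-cell libraries (edgeR adjusted p = 8.70e-05).

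The call of both remaining rises was lost on the shared bases. The peak in Rfx4 (chr10:84861866-84864978), a transcription factor gene of the developing brain, went from 29.5 and 37.5% to 77.8, 75.0 and 76.6% (edgeR adjusted p = 0.00170). H3K27me3 covered 17.4% of it, and on the shared bases the log2 odds ratio was 0.09 (edgeR adjusted p = 0.954), while at the same CpGs it was 2.33 (edgeR adjusted p = 0.000486). The peak at Gm41625 (chr17:79897303-79898666), a predicted gene, rested on 17 and 39 calls in the 100000-cell and 250000-cell libraries, at 82.4 and 71.8% against 23.8 and 26.6% (edgeR adjusted p = 0.0419, 0.313 without the 100000-cell library and 0.290 without the 250000-cell library). In the 20000-cell library this peak stood at 35.7% of 14 calls, closer to the H3K4me1 levels. By edgeR it had an adjusted p of 0.197 on the shared bases, 0.194 with H3K4me1 run 1 and 0.171 with at least 1 call required.

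**Figure D5:**
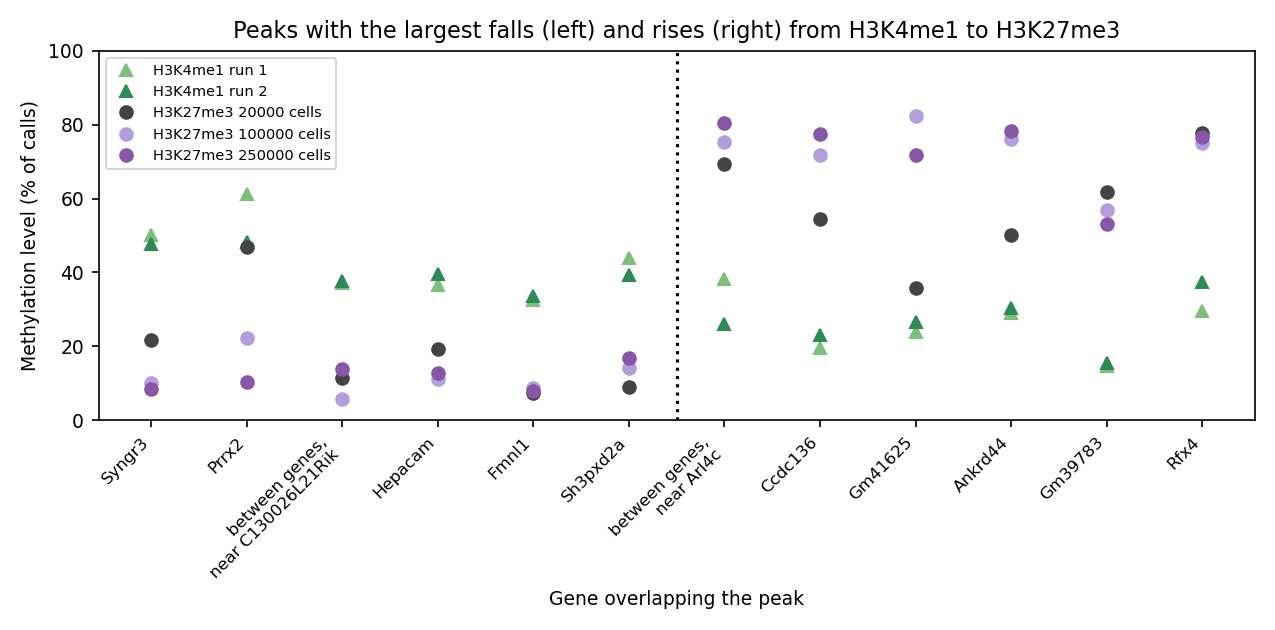
Methylation level (percent of calls) of the 6 peaks with the largest falls and the 6 with the largest rises from H3K4me1 to H3K27me3, in both H3K4me1 runs (triangles) and the 3 H3K27me3 libraries of 20000 cells and more (circles). The symbols of both marks are apart in each peak, by least at Prrx2, where the 20000-cell value is 46.9% beside 48.1% in H3K4me1 run 2.

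The extremes of level were small peaks. At Tmem256, a membrane protein gene, no call was methylated in H3K4me1 run 2 (51 calls, up to 5.88%) or in the 250000-cell H3K27me3 library (123 calls, up to 2.44%). Peaks at Pank1, a coenzyme A synthesis gene, and Sall2, a zinc finger transcription factor gene, were also at 0 in both (64 and 73 calls, and 38 and 63 calls), as was one in Ripor1 with 22 calls in each. The highest peak, in Zfr2, which encodes an RNA-binding zinc finger protein, stood at 91.7% (24 calls) and 87.9% (66 calls). A narrow peak at Creg1, a secreted glycoprotein gene, stood at 88.6 and 86.4%, and an intergenic peak on chromosome 2, 88712 bp from the nearest listed start, at 85.0 and 93.3%. Of these 7 peaks, the 6 that could be tested did not pass the test.

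The peaks with the most calls were wide ones over gene starts. The Neurog3 peak (chr10:62128331-62138773) stood at 15.9 and 16.1% in the H3K4me1 runs and at 8.86, 8.88, 10.6 and 11.1% in the H3K27me3 libraries (edgeR adjusted p = 0.128). At Cacnb3 (chr15:98621115-98638594), a calcium channel subunit gene, levels of 22.6 and 20.9% compared with 14.8, 6.5, 7.70 and 8.59% (edgeR adjusted p = 5.94e-06). At Ankrd33b (chr15:31360554-31369412), 25.7 and 23.8% compared with 8.06, 12.0, 12.4 and 12.3% (edgeR adjusted p = 0.00400, 0.189 without the 100000-cell and 0.140 without the 250000-cell library). In each of these 3 peaks every H3K27me3 value lay below both H3K4me1 values, and the test was passed at Cacnb3 and Ankrd33b. The peak over Tbc1d24, a vesicle traffic gene, and the netrin gene Ntn3 stood at 22.8 and 22.2% and at 3.23, 15.2, 21.3 and 20.3% (edgeR adjusted p = 0.672).

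Genes of development, pluripotency and signalling were sought within 50 kb. Of the 2376 peaks, 29 lay near one of 90 developmental regulators (1.22%, against 1.13% of all H3K4me1 peaks), 14 near one of 30 pluripotency genes (0.589% against 0.700%) and 35 near one of 58 signalling genes (1.47% against 0.809%). Of 4 genes with known poised enhancers (Lhx5, Six3, Sox1 and Wnt8b), Sox1 had 1 such peak and the others none. Of the developmental peaks, 0 of 26 tested were higher and 1 was lower in H3K27me3. The pluripotency peaks had 1 higher and 0 lower of 14, and the signalling peaks 0 and 1 of 33, by the same edgeR test. Median log2 odds ratios were -0.15, -0.19 and 0.16, beside -0.09 over all peaks tested.

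The Sox1 peak (chr8:12427057-12434601), 31538 bp from the start of this neural transcription factor gene and over its overlapping transcript Sox1ot, stood at 14.7 and 15.7% in the H3K4me1 runs and at 8.93, 14.1 and 13.7% in the larger H3K27me3 libraries (edgeR adjusted p = 0.714). Near Meis2, a homeobox gene, a peak (chr2:115857121-115860643) stood at 14.6 and 18.2%, and at 0, 4.34, 5.91 and 6.02% in the H3K27me3 libraries (edgeR adjusted p = 0.000288, 0.0542 with H3K4me1 run 1 in place of run 2), the developmental peak that passed. At the start of Ebf1, a regulator of B cell development, levels of 23.0 and 23.7% compared with 14.3, 11.4 and 12.9% in the larger libraries (edgeR adjusted p = 0.0816). All 3 peaks stood below the pooled level of the class in both H3K4me1 runs and in the H3K27me3 libraries of 20000 cells and more. The developmental list as a whole lay nearer to the class. Of its peaks, 26 reached 20 calls in H3K4me1 run 2 and also in the 250000-cell H3K27me3 library. Their medians were 24.2% and 24.1%, beside 26.3% and 26.1% over the 2063 peaks of the class that met this limit. In the 250000-cell library the 26 ranged from 0 to 70.6%, and 9 were under 20% by both antibodies.

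Near pluripotency genes, the peak at Prdm14, a regulator of naive pluripotency, stood at 7.30 and 8.89% in the H3K4me1 runs and 6.27% in the 250000-cell H3K27me3 library (edgeR adjusted p = 0.305). The Nr5a2 peak, 14881 bp wide at a nuclear receptor gene, stood at 12.9 and 14.9% and at 11%, with H3K27me3 over 6.73% of its width. Near Lefty2 and Lefty1, which encode Nodal antagonists, a peak overlapping Lefty2 stood at 40.9 and 38.1% and at 22.2% (edgeR adjusted p = 0.0728). A neighbouring peak (chr1:180883736-180891178) went the other way, from 17.6% in H3K4me1 run 2 to 42.9, 42.2 and 40.1% in the larger H3K27me3 libraries (edgeR adjusted p = 0.0199). This and the Fzd10 peak below are named because they were the calls in their lists, after their values were seen.

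Near signalling genes, the Fzd10 peak (chr5:128601312-128607089), at a Wnt receptor gene, fell from 27.1% in H3K4me1 run 2 to 11, 8.26 and 10.1% in the larger H3K27me3 libraries (edgeR adjusted p = 0.00172). At Bmp7, a bone morphogenetic protein gene, a peak of 3260 bp wholly under H3K27me3 stood at 43.2 and 43.3% in the H3K4me1 runs and at 23.3, 28.7, 32.5 and 33.8% in the H3K27me3 libraries. Its difference did not pass the test (edgeR adjusted p = 0.320). A second Bmp7 peak of 12289 bp, covered over 11.8% of its width, stood at 23.5 and 28.5% and at 35.1% in the 250000-cell library (0.750 by edgeR). The peak near the netrin gene Ntn1 stood at 16.4 and 15.0% and at 4.93% of 142 calls (edgeR adjusted p = 0.0931).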

How the data were processed

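The authors deposited, per CpG and bisulfite library, whole-number counts of methylated calls and of all calls without normalization, and peak lists that hold positions only. Per the submitters' processing notes, the tools were cutadapt 1.12, Bismark 0.23.0, Bowtie2 2.3.0, HOMER 4.10.3 and bedtools 2.29.2, and the build was mm10. Settings and the treatment of duplicate reads are not given in the sources used here. All 395568 CGs of 31396 RefSeq promoters (GRCm38.p6) fell on CpGs of the deposited table, and 0 of its count columns were left without a sample. Gene names and starts came from RefSeq tables on that assembly. No genome was used, so peak sequences are not printed. The peaks and gene lists were chosen with earlier results of these data known.

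Methylated and total counts were summed per peak, and levels are percentages of calls. Wilson intervals (95%) and the 3-count limits cover counting error only, since amplified copies are not independent. The libraries held 4859852 and 9573835 calls on chromosomes 1 to 19 for H3K4me1, and 370744, 4934467, 24056602 and 36558653 for H3K27me3. The per-peak test was edgeR 4.0.16 (quasi-likelihood, R 4.3.3) on methylated and unmethylated counts, with a coverage term for each library, run 2 for H3K4me1, the 4 H3K27me3 libraries, and Benjamini-Hochberg adjustment at 0.05. A library without calls at a peak adds no counts there, but leaving it out can still change the adjusted p. At Prrx2, with 0 calls in the 4000-cell library, the log2 odds ratio was -1.86 with that library and -1.87 without it. The edgeR adjusted p was 0.0296 and 0.249. On simulated counts for this comparison, with 200 of 12211 peaks changed by 40 points, 88% were recovered and 5.88% of calls were false. The simulated spread was a fixed setting, the same for the H3K4me1 and H3K27me3 libraries. The false share therefore cannot check the assumption that H3K4me1 varies like H3K27me3. Changes of 40 points were also larger than the median change in the called peaks, -14.7 points in the lower and 32.7 in the higher. Other values came from Python 3.11.15 with numpy 2.4.6, pandas 2.3.3, scipy 1.17.1 and matplotlib 3.10.9.

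Named peaks had at least 20 calls in H3K4me1 run 2 and the 250000-cell H3K27me3 library and lay off chromosome 18. They were the 6 largest falls and rises past the threshold, moved the same way in every H3K27me3 library with at least 5 calls, the 4 lowest, the 4 highest and the 4 with most calls, up to 3 per gene list, and those at the limits of the rule. One of the 4 highest is not reported here.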

Additional observations from a re-analysis of the deposited data

Results flagged for a closer look

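In 52 sets of 4 H3K27me3 libraries, 5 held a library far from the others by Dixon's test, and chance gives about 1 in 20. Among CpGs with no other CpG within 100 bp, the level inside the double-marked peaks was 52.8% in the 4000-cell library (125 calls) and 43.1, 44.1 and 44.5% in the others. The difference between inside and outside at such CpGs was accordingly -25.6 points in that library and -34.7, -33.9 and -34.0 points in the others. Double-marked peaks under 1000 bp wide, those of the smallest width left out, stood at 28.4% in the 4000-cell library (782 calls) and at 25.3, 25.4 and 25.7% in the others. Double-marked peaks in a protein-coding gene with no start inside stood at 23.3% in the 20000-cell library and at 24.9, 25.1 and 25.3% in the others. The Ankrd33b peak stood at 8.06% in the 4000-cell library (62 calls) and at 12.0, 12.4 and 12.3% in the others.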

How the results depend on the processing

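Counts of peaks called depended on the test and on the bases compared. Against 30 higher and 68 lower peaks by edgeR, Fisher's exact test on H3K4me1 run 2 and the 250000-cell library called 150 and 191, and at the same CpGs, an alternative chosen after seeing the data, 129 and 141. With run 1 for H3K4me1 the higher count was 18, with at least 1 call required 16, and on shared bases 59. Leaving out 1 H3K27me3 library gave from 6 to 54 higher and from 26 to 115 lower. Of the checks of named calls, 148 stayed past the threshold, 27 did not and 0 reversed. The H3K4me1, H3K9me3 and H3K27me3 levels were 25.2, 29.6 and 21.1% as means of libraries. With means of single CpGs, H3K4me1 and H3K27me3 were at 29.4 and 25.3%. With medians over peaks, H3K4me1 and H3K9me3 were at 26.3 and 23.3%, the latter from only 9 and 102 peaks in its runs. At CpGs with 5 calls or more, the 3 marks were at 22.3, 40.8 and 18.7%. The H3K9me3 value is the mean of 50.0% in run 1 and 31.6% in run 2. These runs held 3807 and 10085 calls at 3516 and 8529 CpGs of the peaks, so few CpGs reached 5 calls. In peaks under 20 CpGs per kb they were at 28.7, 33.6 and 28.1%, and under 40 CpGs per kb at 23.3, 27.7 and 17.3%. On bases in both unified peaks, H3K4me1 and H3K9me3 were at 23.2 and 27%, and with 50% of the peak covered by H3K27me3, H3K4me1 was at 25.5%. Medians over peaks gave differences of 14.0 points from CpG-dense, 1.72 points from H3K4me1-only (reversed, the cause was not tested) and -30.2 points from H3K27me3-only peaks. At 10 to 20 CpGs per kb the last 2 were -7.46 and -4.05 points. Inside minus outside was -33.2 points at 4 to 6 CpGs within 100 bp and -28.2 points as a median over H3K27me3 peaks, both chosen after seeing the data. Of the recomputed levels of single libraries, 13 moved by less than their spread and 51 by more. The levels and differences without any 1 library stayed within the spread (SD) of the libraries. Leaving 1 library out cannot move a mean further than that, so this check could not fail and decides nothing. No paired analysis was possible because the H3K27me3 libraries are labelled by cell number and share no run number with H3K4me1. The 4000-cell library gave 71 of 2376 peaks at least 20 calls, so single-peak values rest on the larger libraries.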
